A study of Mus musculus and Rattus norvegicus with 32 samples.

Results

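The urea cycle and glutamine system of the liver was followed here through 9 genes in the livers of mice and rats given trichloroethylene (TCE), a chlorinated solvent that the liver metabolises. Of these, 6 genes are mainly periportal, that is, used by hepatocytes near the portal vein where blood enters the lobule (Cps1, Otc, Ass1, Asl, Arg1 and Gls2). The other 3 are mainly pericentral, used near the central vein where blood leaves (Glul, Slc1a2 and Oat). A probe set was taken when the platform annotation gave it 1 gene symbol and that symbol was one of these names. This gave 31 probe sets of 21162 in all: 11 of 12422 for 8 genes on the mouse array and 20 of 8740 for 9 genes on the rat array. Gls2 was named on the rat array only.

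Male B6C3F1 mice and male SD rats were given 1500 mg/kg TCE in corn oil by gavage, against corn oil alone. Dosing was once at 8 weeks of age (single dose), or daily for 14 days until 10 weeks of age (repeated dose). Liver was collected 18 h after the last dose, and polyA RNA was hybridised to 1 Affymetrix array design per species. This gave 8 groups of 4 arrays: TCE against oil for each schedule and species. The labels do not say whether each array was a separate animal, so the p-values measure the spread between these arrays, which may be technical. The deposited value is a ratio scaled so that the matching oil group of 4 arrays has a median of 1, so that 0.5 stands for a signal at 0.5 times that median. Levels cannot be compared between genes or species on this scale. In whole liver, fewer cells of a type and less RNA per cell cannot be told apart.

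The periportal enzymes turn ammonia into urea. CPS1 and OTC work in mitochondria and make citrulline from ammonia and ornithine, ASS1 and ASL turn citrulline into arginine, and ARG1 splits arginine into urea and ornithine. GLS2, the liver glutaminase, releases ammonia from glutamine for this cycle. Ammonia that passes this zone is caught by glutamine synthetase (GLUL) in a thin layer of hepatocytes around the central vein, where the glutamate transporter SLC1A2 and ornithine aminotransferase (OAT) can supply glutamate, and this pericentral pattern is known to depend on beta-catenin signalling.

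RefSeq promoter windows (build GRCm38.p6) were found for 5 of the 9 mouse genes (Otc, Ass1, Glul, Slc1a2 and Oat). Those of Glul and Oat are shown because, of these 5, only they had probe sets called in the mouse after repeated doses, where Asl was also called. Each is the 250 bases before the annotated start, read 5′ to 3′ on the strand of the gene, and capitals mark matches to the CCAAT box (CCAAT) or the GC box (GGGCGG) on either strand. The Glul window lies at chr1:153899679-153899928 on the plus strand, and the Oat window at chr7:132576399-132576648 on the minus strand.
Glul: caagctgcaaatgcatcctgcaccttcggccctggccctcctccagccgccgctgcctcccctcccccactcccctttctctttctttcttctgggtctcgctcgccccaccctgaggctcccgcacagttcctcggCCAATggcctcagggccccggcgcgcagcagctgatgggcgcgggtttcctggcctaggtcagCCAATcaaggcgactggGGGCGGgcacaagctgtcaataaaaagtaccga
Oat: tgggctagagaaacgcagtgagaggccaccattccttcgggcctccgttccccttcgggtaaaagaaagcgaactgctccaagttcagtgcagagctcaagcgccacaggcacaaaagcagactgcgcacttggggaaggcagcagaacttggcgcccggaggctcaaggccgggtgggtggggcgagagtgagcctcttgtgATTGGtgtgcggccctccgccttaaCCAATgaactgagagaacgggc
Both windows held 2 CCAAT boxes. In Glul they began 113 and 50 bases before the start, followed by a GC box at 33, and in Oat they began 47 (on the opposite strand) and 22 bases before it. Of all 32851 promoter windows of this length, 33.8% held a CCAAT box and 32.7% a GC box. Neither window held a TATA box (TATAAA, in 12.4% of windows), a TCF core (ATCAAAG, in 3.21%) or either HNF4 core (CAAAGGTC or CAAAGTCC, together in 2.19%), on either strand. Of the 3 windows not shown, that of Slc1a2 held 1 TCF core, 207 bases before the start, that of Ass1 held 1 GC box, at 63, and that of Otc held 0 matches to these motifs. These matches describe letters only.

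**Figure D1:**
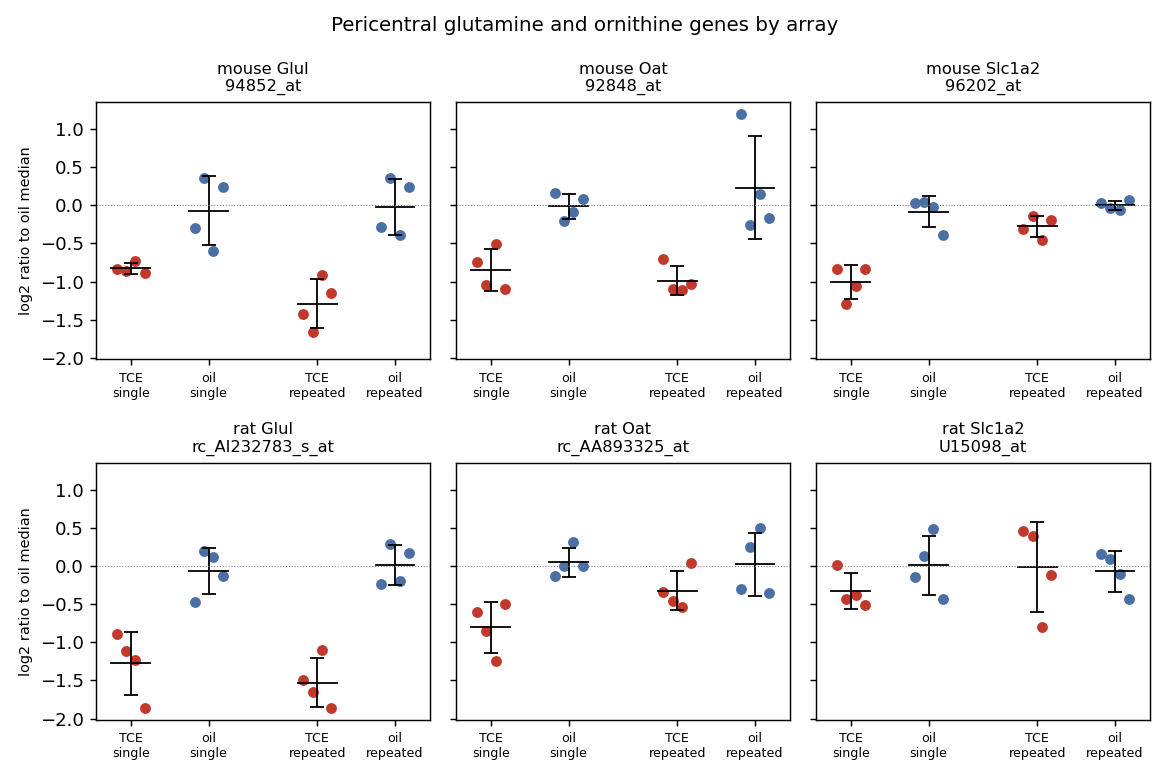
Each point is 1 array, on the log2 scale of the deposited ratio (vertical axis, oil median at 0), with TCE in red left of oil in blue for each schedule. Bars give the mean and SD (n = 4). The TCE arrays lie below the oil arrays for mouse Glul (94852_at) and Oat (92848_at) and rat Glul under both schedules, and for mouse Slc1a2, while rat Slc1a2 overlaps.

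Glul, the glutamine synthetase gene, fell after repeated TCE in 3 of 4 rat probe sets and 1 of 2 mouse probe sets, while the second mouse probe set rose. In rat livers after repeated TCE, the probe set rc_AI232783_s_at read 0.355, 0.318, 0.467 and 0.275, against 0.85, 1.23, 0.87 and 1.13 on the oil arrays. The groups did not overlap, with all TCE arrays under 0.5. The log2 change was -1.54 ± 0.24 (SE; limma adjusted p = 0.00563), which is 0.345 times the oil level.

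The other 3 rat Glul probe sets went the same way. rc_AA852004_s_at read 0.323, 0.237, 0.145 and 0.155 after repeated TCE, against 0.53, 1.35, 0.85 and 1.15 after oil, a log2 change of -2.17 ± 0.39 (limma adjusted p = 0.00991). M91652complete_seq_g_at fell by 1.61 ± 0.29 on the log2 scale (limma adjusted p = 0.00991). M91652complete_seq_at had a log2 change of -0.90 ± 0.26, which did not pass the 0.05 threshold (limma adjusted p = 0.0761) and whose groups overlapped. Across the 16 rat arrays the 4 probe sets moved together, with Pearson correlations of 0.70 to 0.87 between pairs. These points share their arrays and groups, so the correlations describe agreement between probe sets of 1 gene and nothing more.

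These 3 Glul probe sets were the only ones called among the 20 rat probe sets after repeated dosing, and all 3 were lower. Over the whole rat array 0.652% of probe sets were called lower and 2.16% higher. These calls, all of the same gene, therefore ran against the direction in which most rat calls went. No rat Oat or Slc1a2 probe set was called. In 4 of 20 probe sets the TCE and oil arrays did not overlap (3 below and 1 above), against 12.3% of all rat probe sets. The 3 Glul calls remained when any 1 array was left out, with log2 changes from -2.43 to -1.38. With quantile normalization between arrays 0 of the 20 were called (0.0801% of all rat probe sets). With the replicate number as a block 1 was called (0.481%).

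After a single dose, 1 of the 20 rat probe sets was called, again Glul. rc_AI232783_s_at read 0.537, 0.46, 0.425 and 0.276 in TCE livers, against 0.72, 1.15, 1.09 and 0.91 in oil livers. All TCE arrays lay below all oil arrays, and the log2 change was -1.21 ± 0.24 (limma adjusted p = 0.0280). This call was lost without any 1 of TCE replicates 1, 2 and 4 or oil replicates 2, 3 and 4 (adjusted p of 0.0509 to 0.0947), with log2 changes of -1.33 to -1.01. The other 3 Glul probe sets changed by -0.69, -0.80 and -0.96 on the log2 scale, none past the threshold. On the whole rat array 0.503% of probe sets were called lower and 1.21% higher, and non-overlapping groups were seen in 5 of 20 rat members against 12.5% of all rat probe sets.

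In mouse livers the 2 Glul probe sets disagreed. With 94852_at, repeated TCE gave 0.37, 0.32, 0.53 and 0.45, against 0.82, 1.28, 0.76 and 1.18 on the oil arrays. The groups did not overlap, and the log2 change was -1.27 ± 0.24 (limma adjusted p = 0.00675). After a single dose the same probe set read 0.56, 0.55, 0.60 and 0.54 in TCE livers, against 0.81, 1.28, 0.66 and 1.19 in oil livers. These groups did not overlap either, but the log2 change of -0.76 ± 0.24 missed the threshold (limma adjusted p = 0.0668). Without oil replicate 3, the lowest of its group, that change was -0.93 and passed (limma adjusted p = 0.0426).

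The second mouse Glul probe set, 161826_r_at, went up after repeated dosing. It read 1.81, 2.20, 1.79 and 1.89 in TCE livers, against 0.95, 0.99, 1.01 and 1.2 in oil livers, a log2 change of 0.89 ± 0.17 (limma adjusted p = 0.00747). After a single dose it had a log2 change of -0.01 ± 0.17 (limma adjusted p = 0.984). Across the 16 mouse arrays the 2 Glul probe sets had a Pearson correlation of -0.65. The ending r_at is Affymetrix's mark for a probe set designed with some of the probe selection rules dropped, and 901 mouse probe sets (7.25%) carry it. In mouse livers after repeated TCE, 6.33% of the r_at probe sets were called higher and 6.10% lower, against 1.92% higher and 8.66% lower among the other 11521. Which of the 2 probe sets follows the Glul transcript was not tested.

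**Figure D2:**
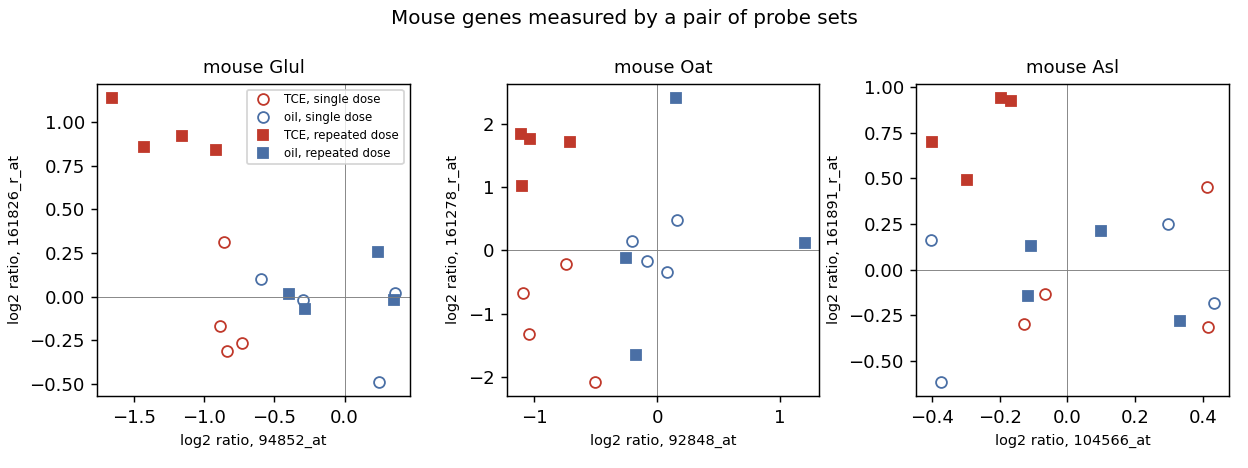
Each point is 1 mouse array. The horizontal axis gives the log2 ratio of the probe set ending in at, and the vertical axis that of the probe set ending in r_at, for Glul, Oat and Asl. Filled squares are repeated-dose and open circles single-dose arrays, TCE in red and oil in blue. The 4 repeated-dose TCE arrays of Glul sit at the upper left, low in 94852_at and high in 161826_r_at.

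Oat, which turns ornithine into a precursor of glutamate and proline, was the other mouse pericentral gene to fall after repeated TCE. With 92848_at, TCE livers read 0.61, 0.47, 0.46 and 0.49, against 2.30, 0.84, 1.11 and 0.89 in oil livers. All TCE arrays lay below the oil arrays, of which replicate 1 stood highest. The log2 change was -1.22 ± 0.27 (limma adjusted p = 0.0128), and it was -0.90 to -1.38 with any 1 array left out, past the threshold each time.

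After a single dose, mouse Oat 92848_at read 0.60, 0.48, 0.71 and 0.47 in TCE livers and 1.12, 0.87, 0.94 and 1.06 in oil livers, again without overlap. The log2 change of -0.84 ± 0.27 did not pass (limma adjusted p = 0.0707). The second Oat probe set, 161278_r_at, was far noisier, with a within-group SD of 0.97 on the log2 scale, against 0.38 for 92848_at. Its log2 changes were -1.10 ± 0.64 after the single dose and 1.4 ± 0.64 after repeated doses, neither past the threshold. Without oil replicate 3, which read 5.31, the repeated-dose change of 161278_r_at was 2.14 and passed (limma adjusted p = 0.0186), in the direction opposite to 92848_at.

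In rat livers neither Oat probe set passed. rc_AA893325_at read 0.66, 0.56, 0.42 and 0.71 after a single TCE dose, against 0.92, 1.0, 1.25 and 1.0 after oil. The groups did not overlap, and the log2 change was -0.85 ± 0.23 (limma adjusted p = 0.0752). After repeated dosing the same probe set changed by -0.35 and M93297cds_at by -1.05 ± 0.51 on the log2 scale, with overlapping groups.

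Slc1a2, the glutamate transporter, was the only mouse probe set of the 11 called after a single dose. Probe set 96202_at read 0.56, 0.41, 0.48 and 0.56 in TCE livers, against 1.02, 1.03, 0.98 and 0.76 in oil livers. The groups did not overlap, and the log2 change was -0.92 ± 0.15 (limma adjusted p = 0.00283), which is 0.529 times the oil level. The call remained with any 1 array left out. After repeated dosing the same probe set read 0.81, 0.91, 0.73 and 0.87 in TCE livers, against 1.02, 0.98, 0.96 and 1.05 in oil livers. The arrays did not overlap, but the log2 change of -0.27 ± 0.15 did not pass (limma adjusted p = 0.248).

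The 4 rat Slc1a2 probe sets gave no common picture. After a single dose their log2 changes ran between -0.97 ± 0.37 (rc_AI044517_g_at) and 1.28 ± 0.50 (rc_AI638980_at), and after repeated doses between -0.09 and 0.06, with none past the threshold. Correlations between pairs of these probe sets over the 16 rat arrays ran between -0.56 and 0.64.

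Over the mouse array after a single dose, 4.14% of probe sets were called lower and 4.16% higher, so the 1 called member of 11 stands near that background. After repeated dosing 8.48% were called lower and 2.24% higher, against 2 members lower and 2 higher of 11. With quantile normalization between arrays 0 of the 11 were called after either schedule (0.475% and 0.0564% of all mouse probe sets). Arrays of the 2 groups did not overlap in 4 of 11 members after a single dose (all 4 below), against 17.6% of all mouse probe sets, and in 8 of 11 after repeated doses (6 below and 2 above), against 17% of all.

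**Figure D3:**
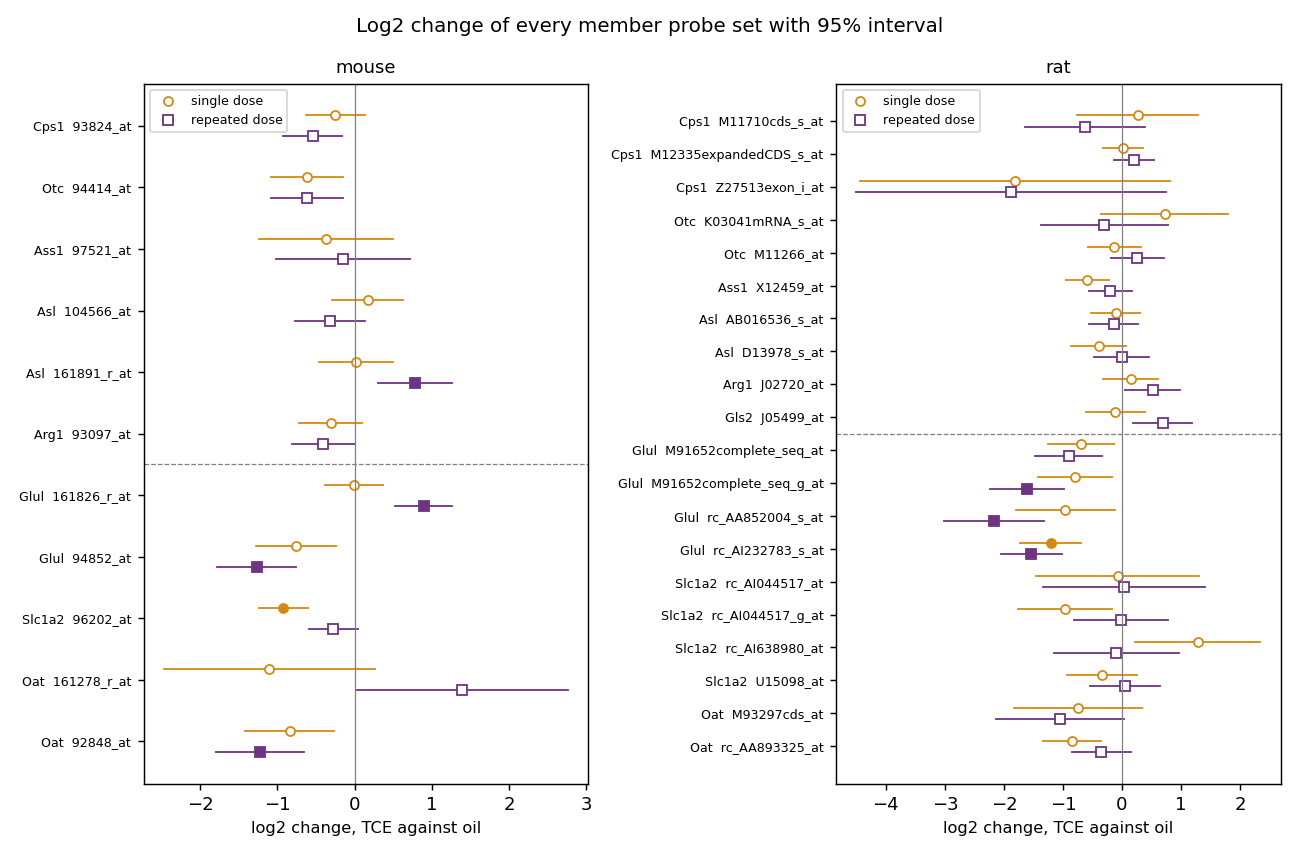
The log2 change of every member probe set is plotted with its 95% interval for the mouse (11 probe sets) and the rat (20 probe sets), circles for the single and squares for the repeated dose, TCE against oil. Filled symbols passed the 0.05 threshold, and the dashed line separates periportal genes above from pericentral genes below. Only 1 of the filled symbols, mouse Asl, is periportal.

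Among the periportal genes, mouse Asl after repeated doses was the only one with a called probe set, 161891_r_at, which was higher. Mouse Cps1 and Otc stood at 0.689 and 0.652 times the oil level after repeated doses and rat Gls2 at 1.61 times, each without overlap between groups and none past the threshold. A missed threshold does not show that these genes were unchanged. With 1 probe set per gene (that with the smallest within-group SD), 0 of 5 periportal genes in the mouse and 0 of 6 in the rat passed limma's threshold after either schedule. At an unadjusted p under 0.05 there was 1 such gene in each species after the single dose and 2 in each after repeated doses. Over all genes the unadjusted counts were 2128 and 2376 of 8251 in the mouse after single and repeated doses. In the rat they were 941 and 880 of 4736. By adjusted p, 4.57% of all genes were called lower and 4.74% higher in the mouse after a single dose. After repeated doses 9.42% were called lower and 2.39% higher. In the rat 0.528% were lower and 1.16% higher after a single dose, and 0.633% lower and 2.32% higher after repeated doses.

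Cps1, which commits ammonia to the cycle, read 0.67, 0.72, 0.79 and 0.71 in mouse livers after repeated TCE, against 1.43, 1.13, 0.87 and 0.85 after oil. The TCE arrays all lay below the oil arrays by a small margin, and the log2 change of -0.54 ± 0.18 did not pass (limma adjusted p = 0.0669). The single-dose change in the mouse was -0.25 ± 0.18 (limma adjusted p = 0.424). In rat livers the quietest Cps1 probe set, M12335expandedCDS_s_at, read 1.16, 1.07, 1.29 and 1.13 after repeated TCE and 0.89, 1.0, 1.15 and 1.0 after oil. These groups overlapped, and the log2 change was 0.20 ± 0.16 (limma adjusted p = 0.517). The other rat Cps1 probe sets were noisy: Z27513exon_i_at ranged between 0.07 and 8.35 over the 16 arrays, and no Cps1 probe set passed in the rat.

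Otc, which joins carbamoyl phosphate to ornithine, read 0.60, 0.53, 0.85 and 0.68 in mouse livers after a single TCE dose, against 0.94, 1.05, 0.91 and 1.11 after oil. After repeated doses it read 0.54, 0.74, 0.82 and 0.82 in TCE livers, against 1.68, 1.04, 0.90 and 0.96 in oil livers. Neither pair of groups overlapped. The log2 changes of -0.61 ± 0.22 and -0.62 ± 0.22 did not pass (limma adjusted p = 0.0957 and 0.0804). In the rat the quieter probe set, M11266_at, changed by -0.13 after a single and 0.26 after repeated doses on the log2 scale, with overlapping groups.

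Ass1, which adds aspartate to citrulline, read 0.73, 0.81, 0.58 and 0.52 in rat livers after a single TCE dose, against 1.09, 1.05, 0.95 and 0.84 after oil. The groups did not overlap, and the log2 change was -0.59 ± 0.17 (limma adjusted p = 0.0902). Mouse Ass1 varied more, with log2 changes of -0.37 ± 0.40 and -0.15 ± 0.40 after single and repeated doses.

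For Asl, which releases arginine, the 2 mouse probe sets again parted after repeated doses. 161891_r_at read 1.4, 1.92, 1.90 and 1.62 in TCE livers, against 0.82, 0.91, 1.09 and 1.16 in oil livers, a log2 change of 0.78 ± 0.22 (limma adjusted p = 0.0390). This call was lost without any 1 array other than TCE replicate 1 (adjusted p of 0.0547 to 0.101). 104566_at read 0.81, 0.87, 0.89 and 0.76 in TCE livers, against 1.26, 0.92, 0.93 and 1.07 in oil livers, a log2 change of -0.32 ± 0.21 (limma adjusted p = 0.363). The 2 probe sets had a correlation of -0.25 over the 16 arrays. In the rat both Asl probe sets overlapped between groups.

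Arg1, the last enzyme of the cycle, read 0.73, 0.79, 0.86 and 0.80 in mouse livers after repeated TCE, against 1.5, 1.09, 0.91 and 0.81 after oil (log2 change -0.40 ± 0.19, limma adjusted p = 0.187). In rat livers it read 1.14, 1.39, 1.46 and 1.4 after repeated TCE, against 0.93, 1.07, 0.59 and 1.28 after oil (log2 change 0.52 ± 0.22, limma adjusted p = 0.204). Both pairs of groups overlapped, with mean changes of opposite sign in the mouse and the rat.

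Gls2, measured only in the rat, read 1.45, 1.42, 1.32 and 2.04 after repeated TCE, against 1.08, 1.0, 1.0 and 0.76 after oil. All TCE arrays lay above all oil arrays, and the log2 change of 0.69 ± 0.23 did not pass (limma adjusted p = 0.121). After a single dose the change was -0.11 ± 0.23 (limma adjusted p = 0.826).

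**Figure D4:**
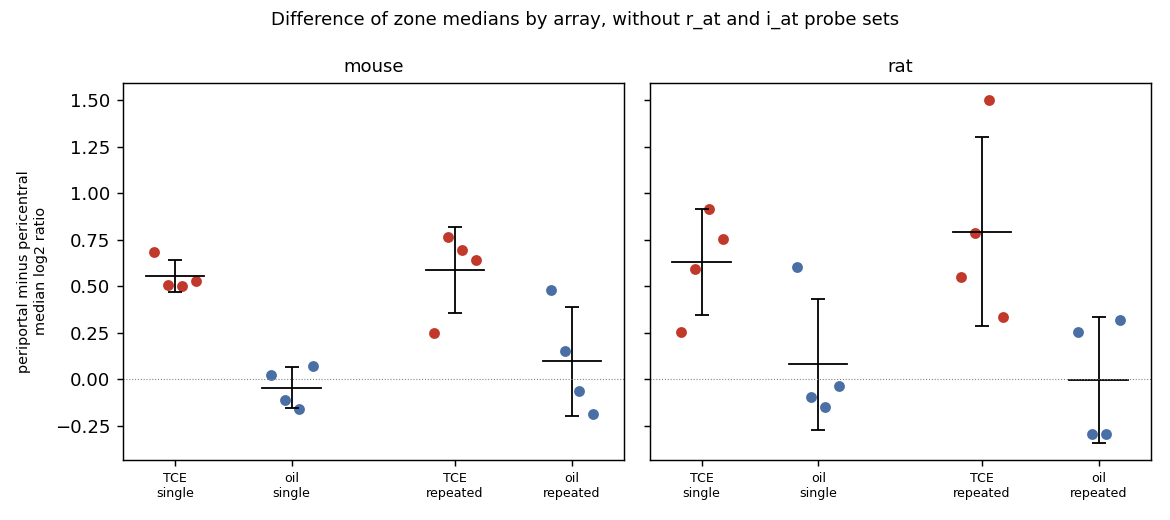
For each array, the vertical axis gives the median log2 ratio of the periportal genes minus that of the pericentral genes. Each gene is the mean of its probe sets, without those ending in r_at or i_at. Points are arrays (TCE red, oil blue) and bars the mean and SD (n = 4). The TCE means lie at 0.55 to 0.79 and the oil means at -0.05 to 0.10.

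The 2 zones can be set against each other within each array, as the median log2 ratio of the periportal genes minus that of the pericentral genes. Each gene entered as the mean of its probe sets, without r_at and i_at probe sets. In the mouse this difference averaged 0.55 ± 0.09 in TCE livers and -0.05 ± 0.11 in oil livers after a single dose (SD, n = 4 each), with no overlap. After repeated doses it averaged 0.59 ± 0.23 in TCE livers and 0.10 ± 0.29 in oil livers, with overlap. With the r_at probe sets kept, the mouse repeated-dose difference was -0.19 ± 0.01 in TCE livers and 0.10 ± 0.29 in oil livers. The direction for repeated-dose mice therefore depended on the r_at probe sets.

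In the rat the zone difference averaged 0.63 ± 0.28 in TCE livers and 0.08 ± 0.35 in oil livers after a single dose, and 0.79 ± 0.51 in TCE livers and -0.00 ± 0.34 in oil livers after repeated doses. The single-dose groups overlapped through oil replicate 1. The repeated-dose groups did not overlap, by a narrow margin (lowest TCE array 0.333, highest oil array 0.318). With the i_at probe set kept, the repeated-dose difference was 0.72 ± 0.55 in TCE livers and 0.03 ± 0.40 in oil livers, with overlap. In rat livers after repeated TCE the periportal median was 0.07 ± 0.10 and the pericentral median -0.72 ± 0.51, so the pericentral median was the one that lay away from 0. With 3 pericentral genes, that median is the value of the middle gene on each array. No test was made of these scores, since the probe sets were chosen with their values known.

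The effect of repeated TCE was set against that of single TCE within each species. By limma 0 of 11 mouse and 0 of 20 rat member probe sets passed, against 0.877% and 0% of all probe sets. At an unadjusted p under 0.05 there were 4 of the 11 in the mouse and 2 of the 20 in the rat (2338 of all 12422 and 818 of all 8740). The mouse Glul probe set 161826_r_at had the smallest adjusted p, with a difference of 0.90 ± 0.25 (limma adjusted p = 0.0776). Mouse Slc1a2 differed by 0.65 (95% interval 0.20 to 1.09, limma adjusted p = 0.120), so its smaller repeated-dose change was not shown to differ from its single-dose change.

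Between species, mouse and rat effects were compared over 3056 genes with the same symbol on both arrays, of which 4.22% differed after the single dose and 10.5% after repeated doses. After repeated doses 3 of 8 member genes passed. Cps1 had a log2 effect of -0.54 in the mouse and 0.20 in the rat, a difference of -0.74 ± 0.22 (limma adjusted p = 0.0309). Arg1 had -0.40 in the mouse and 0.52 in the rat, a difference of -0.93 ± 0.28 (limma adjusted p = 0.0331). For both genes the effect of TCE was thus lower in the mouse than in the rat, although neither passed the test within a species. Of all genes called in this comparison, 260 had the lower effect in the mouse and 61 in the rat. With every array centred on its median, the differences were -0.54 for Cps1 and -0.73 for Arg1 and did not pass (limma adjusted p = 0.141 and 0.126).

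Each of these 2 calls hung on single arrays. The Cps1 call was lost without any 1 of 6 of the 16 repeated-dose arrays (mouse TCE 1 and 2, mouse oil 1 and 2, rat TCE 3 and rat oil 1), at -0.74 to -0.59. The Arg1 call was lost without any 1 of 9 (mouse TCE 1 and 2, mouse oil 1 and 2, rat TCE 2, 3 and 4, rat oil 1 and 3), at -0.93 to -0.71. With the mean of all probe sets of a gene in place of the quietest one, the Cps1 difference was 0.23 (limma adjusted p = 0.805), since the noisy rat probe sets then counted.

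Glul was called different between species under both schedules, but its probe set decided this. The quietest mouse Glul probe set was 161826_r_at, and with it the mouse effect minus the rat effect was 1.2 ± 0.29 after a single dose (limma adjusted p = 0.0179) and 2.43 ± 0.29 after repeated doses (limma adjusted p = 6.14e-06). With r_at probe sets left out, 94852_at stood for the mouse. The differences were then 0.45 (95% interval -0.24 to 1.14, adjusted p = 0.454) and 0.27 (95% interval -0.42 to 0.96, adjusted p = 0.647). The Cps1 and Arg1 calls remained without the r_at probe sets (limma adjusted p = 0.0325 and 0.0346). Otc, with an effect of -0.62 in the mouse and 0.26 in the rat after repeated doses, fell just outside the threshold (difference -0.88 ± 0.29, limma adjusted p = 0.0546).

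RNA quality moved with treatment in the mouse arrays and, less clearly, in the rat arrays. The log2 ratio of the 3′ minus the 5′ Gapdh control probe sets, which is high when RNA is broken or labelled short, exceeded 1 on 6 of 8 mouse and 3 of 8 rat TCE arrays, against 1 of 8 mouse and 0 of 8 rat oil arrays. In the rat single-dose TCE group only replicate 4 exceeded 1, at 1.90, and the others read -0.66 to 0.10. Only 1 TCE array in each mouse group lay below 1, replicate 2 after the single dose and replicate 1 after repeated doses. On these 2 mouse arrays Glul read 0.55 and 0.37 in 94852_at, and 1.24 and 1.81 in 161826_r_at. With all arrays above 1 left out, the repeated-dose Glul change was -1.49 in the mouse (94852_at) and -1.58 in the rat (rc_AI232783_s_at), the second still past the threshold (limma adjusted p = 0.193 and 0.0130). Repeated-dose mouse Oat (92848_at), at -0.62, and single-dose mouse Slc1a2, at -1.21, did not pass on those arrays (limma adjusted p = 0.305 and 0.114), which left 1 TCE array in each mouse group, assumed to vary like the others. With the Gapdh value as a covariate, mouse Cps1 and Otc after repeated doses changed by -0.68 and -0.85 and passed (limma adjusted p = 0.0179 and 0.00738). The mean log2 ratio of the spike-in controls (Bio and Cre probe sets) also moved with treatment in the mouse. On TCE arrays it ran from -0.74 to -0.53 after a single dose and from -1.30 to -1.03 after repeated doses. Mouse oil arrays ran from -0.21 to 0.12 and from -0.64 to 0.61. Rat TCE and oil arrays overlapped in this measure. Beyond these values, the part of RNA quality, or of the spike-in shift, was not tested.

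Genes around the urea cycle were read as groups, with 1 probe set per gene. Of 13 other urea cycle, ammonia and arginine genes measured in the mouse, limma called 0 after a single dose. At an unadjusted p under 0.05 there were 5, against 2128 of all 8251 mouse genes. After repeated doses limma called 1 higher and 2 lower, with a list median of -0.25 against -0.16 over all mouse genes. The 2 that fell were Slc25a15, the mitochondrial ornithine carrier (-0.73 log2), and Aqp9, a channel that also carries urea (-0.57). The 1 that rose, Got2, mitochondrial aspartate aminotransferase (0.57), was measured by an r_at probe set. In the rat 0 of 13 were called after a single dose and 0 of 13 after repeated doses (4 and 0 at an unadjusted p under 0.05). Over all rat genes the unadjusted counts were 941 and 880 of 4736. By adjusted p, 4.74% of all mouse genes were higher and 4.57% lower after a single dose, and 2.39% and 9.42% after repeated doses.

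Genes of ornithine and polyamine metabolism held further calls. In the mouse after a single dose, 3 of 7 measured genes of ornithine, proline and polyamine metabolism were higher and 1 lower: Srm, spermidine synthase (1.73 log2), Odc1, ornithine decarboxylase (1.18 ± 0.17), Azin1, which frees Odc1 from its inhibitor (0.72), and Sat1, which breaks polyamines down (-0.95). After repeated doses Odc1 was again higher (0.67 ± 0.17, limma adjusted p = 0.0238) and Sat1 lower (-1.14). In the rat Odc1 rose after repeated doses (1.37 ± 0.27, limma adjusted p = 0.0159) but had 0.36 ± 0.27 after a single dose (limma adjusted p = 0.497). Amd1, which supplies the aminopropyl donor, rose in the rat after both schedules (1.37 and 1.30). Repeated-dose mouse livers therefore had more Odc1 and, in 92848_at, less Oat, the 2 enzymes that draw on ornithine outside the urea cycle. The list medians were -0.06 in the mouse after both schedules, and 0.05 and 0.55 in the rat. Over all genes the medians were -0.08 and -0.16 in the mouse and 0.12 and 0.04 in the rat. Limma called 4.74% of all mouse genes higher and 4.57% lower after a single dose, and 2.39% and 9.42% after repeated doses. Of all rat genes 1.16% were higher and 0.528% lower after a single dose, and 2.32% and 0.633% after repeated doses.

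Of 15 glutamine and glutamate genes in the mouse, 2 were higher and 0 lower after a single dose, with Slc3a2, the shared heavy chain of several amino acid transporters, at 1.88 log2 and Ctps, CTP synthase, at 0.65. After repeated doses 2 were higher and 2 lower. Asns, asparagine synthetase, which uses glutamine (1.0), and Slc3a2 (0.82) rose, while the glutamine transporter Slc38a2 (-1.26) and Slc7a7, a light chain that pairs with Slc3a2 (-1.07), fell. Of 9 such genes in the rat, Gclm, the modifier subunit of the glutathione-making enzyme, was called after both schedules (1.37 and 1.68). Among regulators of the cycle and of zonation, 1 of 18 in the mouse was called after a single dose (Ppara, a nuclear receptor for fatty acids, 0.56) and 0 of 18 after repeated doses (limma; 8 at an unadjusted p under 0.05). In the rat 0 of 13 were called after either schedule (2 at an unadjusted p under 0.05 each time). Unadjusted counts over all genes were 2376 of 8251 in the mouse after repeated doses, and 941 and 880 of 4736 in the rat. Shares called over all mouse genes were 4.74% higher and 4.57% lower after a single dose, and 2.39% and 9.42% after repeated doses. For the rat they were 1.16% and 0.528%, and 2.32% and 0.633%.

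Other zone markers did not all follow the 9 genes. Of 12 other pericentral markers in the mouse, limma called 0 after a single dose and 2 lower after repeated doses, namely Cyp7a1, which starts bile acid synthesis (-1.85 log2), and Lect2 (-0.69). In the rat 2 of 12 were higher and 0 lower after each schedule. They were Gsta3, a glutathione transferase (2.29 and 3.68), and Aldh1a1, a retinal dehydrogenase (1.55 and 2.78), and these 2 moved opposite to Glul. The rat list medians were 0.05 and -0.20 after single and repeated doses, against 0.12 and 0.04 over all rat genes. Its lowest genes stood at -0.98 and -1.90. Cyp2e1, the pericentral cytochrome known to oxidise TCE, had log2 changes of -0.06 and -0.37 in the mouse and -0.30 and 0.20 in the rat after single and repeated doses, none past the threshold. Of 11 other periportal markers in the mouse, Cyp2f2 fell after both schedules (-1.26 and -0.92), joined after repeated doses by Ctsc (-1.28) and Tat (-0.59). In the rat 1 of 9 fell, Pck1, the gluconeogenic enzyme (-1.4 and -1.61). Of all mouse genes 4.57% were called lower after a single dose and 9.42% after repeated doses. Of all rat genes 1.16% and 2.32% were called higher, and 0.528% and 0.633% lower.

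Markers of the liver's cell types were read in the same way, although ratios hold no levels by which the tissue itself could be checked. In the mouse after a single dose, 1 of 7 hepatocyte markers and 1 of 4 red blood cell precursor markers were lower and no others were called among 9 macrophage, 8 endothelial, 9 stellate, 4 bile duct, 10 lymphocyte and neutrophil and 7 exocrine pancreas markers. After repeated doses 2 of 9 macrophage, 1 of 8 endothelial, 1 of 7 hepatocyte, 1 of 10 lymphocyte and neutrophil and 1 of 4 red blood cell precursor markers were lower, and 1 of 9 stellate markers was higher. Among all mouse genes 4.74% were higher and 4.57% lower after a single dose, and 2.39% and 9.42% after repeated doses. The macrophage list had medians of -0.48 and -0.55 in the mouse after single and repeated doses. In the rat its medians were -0.50 and -0.68 over 5 genes, with 0 called. In the rat the only calls were in the endothelial list after repeated doses, with 1 of 4 higher and 1 of 4 lower. Of all rat genes 2.32% were higher and 0.633% lower after repeated doses. The exocrine pancreas list had a rat single-dose median of -0.89 over 12 genes, with 0 called by limma and 0 at an unadjusted p under 0.05. The part of other cell types in the member values was not tested.

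The genes whose pattern over the 16 arrays of a species was most like that of a member were sought by Pearson correlation, with no test. For mouse Cps1 the first was Arg1, a urea cycle enzyme (r = 0.931), followed by Kpna2 (0.914) and Fbp1 (0.910). For rat Cps1 they were Selenop (0.817), Sycp3 (0.810) and Tsga10 (0.778). For rat Glul they were Gstt2 (0.940), Cirbp (0.906) and Cdk5 (0.904). For mouse Glul the 2 probe sets had different company: Rae1 (0.948), Cilp2 (0.936) and Zfp277 (0.921) for 161826_r_at, of which Rae1 and Zfp277 were themselves measured by r_at probe sets, and Numb (0.974), Notch2 (0.961) and Skp1 (0.952) for 94852_at, an anchor chosen after the values were seen.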

How the data were processed

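Per the submitters' processing notes, MAS5 made the signals; no version is given in the sources used here. What the authors deposited is a ratio, with each matching oil group of 4 arrays at a median of 1. The values show this (within 0.002 for 100% of probe sets without missing values). Brightness over background is unknown, and precision is limited by how many arrays there are. Control probe sets (66 mouse, 59 rat) were left out of the tests.

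The log2 ratios entered limma 3.58.1 (lmFit and eBayes, R 4.3.3) with a mean per group over 16 arrays per species, or 32 for the species comparison. P-values were adjusted by Benjamini-Hochberg over all probe sets of a species, with a threshold of 0.05. In the species comparison they were adjusted over the 3056 genes on both arrays. Where a gene had several probe sets, the one that varied least within groups (by SD) stood for it. Named genes were all members, the called genes of the fixed lists, and the 3 genes most like Glul and Cps1 in each species. Called genes of the lists of liver cell types were counted but not named. A few uncalled list genes (Cyp2e1 among them) were named after their values were seen. The members and the 16 gene lists were chosen with earlier results of these data known. Replicate numbers did not pair arrays (same-number correlations of deviations -0.174 to 0.0778). On simulated data, log2 changes of 1 were recovered in 31.3% of cases for the mouse single dose and 37.3% for the mouse repeated dose, among 12420 probe sets, and in 31.3% and 22.4% for the rat, among 8732. The changes were placed in a small share of these probe sets, in a single draw of normal noise. Recovery in the real data may therefore differ. Plots used matplotlib 3.10.9 under Python 3.11.15.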

Additional observations from a re-analysis of the deposited data

Results flagged for a closer look

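In 5 of 124 groups of 4 arrays, the highest or lowest array stood apart from the others by Dixon's criterion at the 95% level, which chance gives in about 1 in 20 groups. In mouse livers after repeated TCE, Ass1 (97521_at) read 0.335 on replicate 4 and 1.14 to 1.16 on the others, and Oat (161278_r_at) read 2.02 on replicate 2 and 3.27 to 3.58 on the others. Slc1a2 (96202_at) read 0.763 on single-dose mouse oil replicate 4 and 0.983 to 1.03 on the others. In the rat, Slc1a2 (rc_AI044517_g_at) read 1.85 on repeated-dose TCE replicate 1 and 0.743 to 0.794 on the others, and Glul (M91652complete_seq_at) read 0.744 on single-dose oil replicate 1 and 0.993 to 1.01 on the others.

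The mouse effect minus the rat effect passed limma's threshold for Glul after a single dose (1.2) and for Glul (2.43), Cps1 (-0.74) and Arg1 (-0.93) after repeated doses. The 2 Glul differences did not pass without r_at probe sets.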

How the results depend on the processing

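As reported, 1 and 4 of the mouse and 1 and 3 of the rat member probe sets were called after single and repeated doses, and 1 and 3 member genes differed between species. Over all probe sets 8.3% and 10.7% were called in the mouse and 1.72% and 2.81% in the rat. Of all genes on both arrays 4.22% and 10.5% differed between species. The shares in brackets below are those over all probe sets or genes in the same setting. With quantile normalization the 4 counts of probe sets were 0, 0, 0 and 0 (0.475%, 0.0564%, 0.0229% and 0.0801%) and the species counts 0 and 1 (0.229% and 0.196%). With arrays centred on their medians, the rat single-dose count was 3 (2.11%) and the repeated-dose species count 1 (7.3%). Without the noisiest 40% of probe sets, the mouse single-dose count was 4 of 9 (20.4%) and the rat single-dose count 3 of 13 (8.41%). The mouse schedule difference was then 1 of 9 (9.02%). With the groups of the comparison alone, the mouse counts were 2 and 2 (6.31% and 3.12%) and the rat single-dose count 0 (0.789%). The species counts were then 0 and 1 (2.98% and 7.46%). With array weights the mouse and rat single-dose counts were 2 and 2 (12.5% and 4.77%). With the Gapdh value as a covariate the mouse single-dose count was 2 (2.24%). Without arrays above 1 the rat single-dose count was 0 (0.332%). In that setting each mouse schedule kept 1 TCE array, so the mouse and species counts are not given. With the mean of the probe sets of a gene the single-dose species count was 0 (3.11%), and the repeated-dose Cps1 difference turned from -0.74 to 0.23. Without r_at probe sets (added after seeing the data) the mouse repeated-dose count was 2 of 8 (10.7%) and the single-dose species count 0 (4.03%). With the replicate number as a block, although the numbers did not pair the arrays, the mouse counts were 0 and 1 (1.53% and 2.13%). The rat counts were then 0 and 1 (0.0915% and 0.481%) and the species counts 0 and 1 (1.8% and 5.89%).

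With 1 array left out at a time, the mouse single-dose count ran between 1 and 2 (4.18% to 9.56% of all probe sets). The mouse repeated-dose count ran between 3 and 4 (5.53% to 10.2%). The mouse schedule difference ran between 0 and 1 (0.169% to 0.95%) and the rat single-dose count between 0 and 1 (0.252% to 1.46%). The repeated-dose species count ran between 1 and 4 (8.31% to 11.8% of genes on both arrays). The pseudocount of 0.1 changed none of these counts by more than 1.5 times. The causes of these shifts were not tested.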
